A study of Mus musculus with 6 samples.

Results

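Mrgpra2a and Mrgpra2b are 2 neighbouring mouse genes that encode Mas-related G protein-coupled receptors. They were read from the deposited gene table by their symbols, as 2 of its 9295 genes, and their counts were also summed. The pair was chosen by its counts in the groups compared here, so its own difference is given as a description with no test. In the libraries labelled KO the pair stood at 242 to 305 counts-per-million (CPM), against 0 to 0.157 CPM in the libraries labelled Con.

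The 6 libraries were made from bone marrow of mice that carried acute myeloid leukemia, a cancer of the myeloid blood lineage, and all 6 have leukemia as their cell type label. The KO group is 3 samples of the genotype PAPOLA KO, and the Con group is 3 samples of the genotype PAPOLA flox/flox, in which the gene carries recombination sites. Papola encodes the canonical nuclear poly(A) polymerase, which adds the tail to messenger RNA. The labels name no Cre driver, promoter, strain, age, sex or cell sort, nor whether each sample is 1 animal, so the spread within a group may be technical. Mpo, a marker of the myeloid lineage, was found in all 6 libraries, at 2239 to 2876 CPM in KO and 274 to 294 CPM in Con.

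Mas-related receptors form a rodent-expanded family best known from sensory neurons, where several members respond to itch-inducing ligands, and from mast cells, where Mrgprb2 triggers degranulation. Mrgpra2a and Mrgpra2b are instead known from mouse neutrophils. There they are activated by beta-defensins, antimicrobial peptides of epithelial cells, and their activation has been linked to the release of interleukin-1 beta and CXCL2. Neutrophils arise in bone marrow through promyelocyte, immature and mature stages, each with its own granule and surface proteins.

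The transcripts of the pair are almost the same sequence, which bears on how far their counts can be told apart. In GENCODE release M21 (GRCm38), Mrgpra2a-201 lies at chr7:47426328-47452139 and Mrgpra2b-201 at chr7:47463806-47489586, both on the minus strand, with 11.7 kb between the genes. Each has 2 exons and a coding sequence of 996 bases, or 331 codons and a stop codon. Over the 1236 bases that both transcripts share, 3 differ (identity 99.76%). A further 33 bases aligned to no base of the other transcript, 29 of them at the 5′ end of Mrgpra2b, and were left out. Positions in the coding sequence are counted from 1 at its first base, with the base of Mrgpra2a before the position and that of Mrgpra2b after it. The differences are A351G in codon 117 and G890A in codon 297, neither of them synonymous, and T1075C in the 3' untranslated region, counted from the start of the Mrgpra2a transcript. The coding stretches that hold the first and the second of these are printed 5′ to 3′ because a coding read that covers neither base matches both transcripts equally. The capital marks the differing base.
Mrgpra2a, chr7:47427138-47427178: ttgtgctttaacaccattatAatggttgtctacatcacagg
Mrgpra2b, chr7:47464612-47464652: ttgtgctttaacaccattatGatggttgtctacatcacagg
Mrgpra2a, chr7:47426599-47426639: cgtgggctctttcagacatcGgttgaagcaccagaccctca
Mrgpra2b, chr7:47464073-47464113: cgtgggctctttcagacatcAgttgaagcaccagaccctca

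The share of reads that could distinguish the genes depends on their length. Of all windows along the shared 1236 bases, those holding at least 1 differing base were 12.6% at 50 bases, 26.4% at 100 bases and 39.2% at 150 bases. The unaligned bases left out above may also separate the copies and are not counted in these shares. The sources used here give no read length, and Mrgpra2b-202, another annotated transcript, was left out of this comparison. The nearest other relatives were much less alike, with a coding identity to Mrgpra2a of 85.8% for Mrgpra9, 85.2% for Mrgpra1, 80.8% for Mrgpra3 and 60.0% for the mast cell receptor gene Mrgprb2.

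The stretches upstream of the genes were identical as well. In RefSeq (GRCm38.p6) both genes matched, and the windows from 250 bases before to 50 bases after the start differed at 0 positions. Of 27025 genes with such a window, 489 (1.81%) shared an identical one with another gene. The 250 bases before the start, on the minus strand, are shown because the genes moved together and this sequence cannot separate them.
Mrgpra2a, chr7:47452165-47452414: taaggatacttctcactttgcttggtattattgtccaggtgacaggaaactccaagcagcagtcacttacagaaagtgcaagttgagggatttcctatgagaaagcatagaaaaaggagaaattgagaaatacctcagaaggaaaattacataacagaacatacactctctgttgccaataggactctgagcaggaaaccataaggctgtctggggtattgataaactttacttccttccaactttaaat
The same letters stand at chr7:47489583-47489832 before Mrgpra2b.

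A set of 5 short motifs was searched for on both strands of these windows, and none was found in the pair. They were TTGCNNAA for C/EBP factors, held by 10.8% of all 32851 windows, GAGGAAG for PU.1 (13.63%), TGTGGTT for RUNX factors (5.27%), AGATAA for GATA factors (11.18%) and TATAAA for the TATA box (13.62%). This says only that these letters are not in the windows.

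The 9295 genes of the table summed to 9768143, 9007500 and 8875022 counts in KO replicates 1, 2 and 3, and to 11286211, 11436216 and 11253932 counts in Con replicates 1, 2 and 3. CPM values are deposited counts over the library total, scaled by trimmed mean of M values (TMM) factors. A level of 10 counts was 1.17 to 1.29 CPM in KO and 0.758 to 0.800 CPM in Con. Of 8358 genes tested with edgeR, 82.0% passed a Benjamini-Hochberg adjusted p of 0.05, with 39.6% higher and 42.4% lower in KO. Scaled by library size alone, the split was 2488 higher and 4476 lower in place of 3310 and 3544, and the median log2 fold change of all genes was -0.41 in place of -0.06. Con replicates 2 and 3 differed far less from each other (chi-square per degree of freedom 1.68) than other pairs of a group did (17.7 to 23.7).

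Papola itself (gene ID 18789) did not check the labels. It had 2928, 2929 and 2440 counts in KO and 3751, 3779 and 3642 counts in Con, or 339 ± 23.8 CPM in KO and 291 ± 6.42 CPM in Con (SD, n = 3 each). The log2 fold change of 0.22 (SE 0.08; edgeR, Benjamini-Hochberg adjusted p = 0.0291) was -0.13 when scaled by library size alone (edgeR adjusted p = 0.187). Without any 1 library other than KO replicate 3, the edgeR adjusted p was 0.0614 to 0.0814. The counts are over the whole gene, and deleted exons were not analysed here. Every direction given is therefore that of the libraries by their labels alone.

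Mrgpra2a (gene ID 668727) was counted in every library labelled KO and in no library labelled Con. Its deposited counts were 401.78, 282.68 and 333.87 in KO replicates 1, 2 and 3, against 0, 0 and 0 in Con replicates 1, 2 and 3. The groups did not overlap. Scaled, the level was 46.95, 34.87 and 42.96 CPM in KO, a mean of 41.6 ± 6.15 CPM (SD, n = 3), against 0 CPM in each Con library, where a floor of 3 counts allows up to 0.227 to 0.240 CPM per library. Against a floor of 3 counts over the Con group, the level was at least 534-fold higher in KO. Mrgpra2a was one of 239 genes of the table with 0 counts in all Con libraries, of which 38 passed the filter on low counts.

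Mrgpra2b (gene ID 235712) was the more strongly counted copy. Its deposited counts were 1975.22, 1677.32 and 2039.13 in KO, against 0, 2 and 1 in Con. Again no KO library came near any Con library. The level was 231, 207 and 262 CPM in KO, a mean of 233 ± 27.8 CPM, against 0.0791 ± 0.0786 CPM in Con (SD, n = 3 each). The ratio of the pooled levels was 2984 (exact 95% interval 1021 to 14474, counting error only). It was 5988 (1074 to 236547) without Con replicate 2, which held 2 of the 3 Con counts, and 1959 (670.0 to 9502) without Con replicate 1.

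Summed over both copies, the value no longer depends on how reads were divided between them. The sums were 2377, 1960 and 2373 counts in KO and 0, 2 and 1 counts in Con, each a whole number although both parts are fractional in KO. Scaled, they were 278, 242 and 305 CPM in KO, with a mean of 275 ± 31.9 CPM, against 0.0791 ± 0.0786 CPM in Con (SD, n = 3 each). The spread within KO was 11.6% of the mean. The pair took 0.0243% (exact 95% interval 0.0234% to 0.0253%), 0.0218% (0.0208% to 0.0227%) and 0.0267% (0.0257% to 0.0278%) of the counts of KO replicates 1, 2 and 3. The shares in Con were 0%, 1.75e-05% and 8.89e-06% in replicates 1, 2 and 3. The ratio of the pooled levels was 3518 (exact 95% interval 1203 to 17062), or 11.78 on the log2 scale. Without Con replicate 2 it was 7059 (1267 to 278846), and without Con replicate 1 it was 2309 (790 to 11201).

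**Figure D1:**
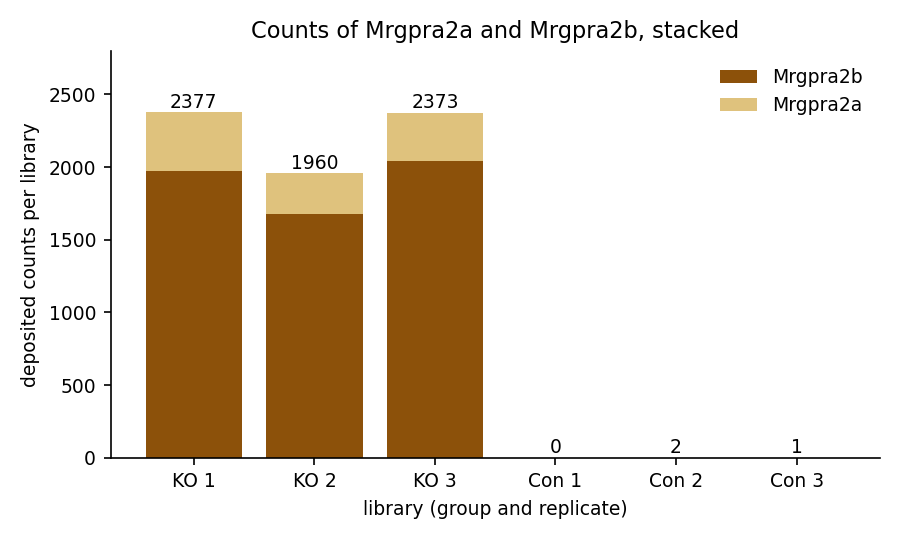
Deposited counts (vertical axis) of Mrgpra2a and Mrgpra2b, stacked, in each library (KO left, Con right), with the sum printed above each bar. The 3 KO libraries reached 2377, 1960 and 2373 counts, the 3 Con libraries 0, 2 and 1.

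Both members passed the filter on low counts, through their KO libraries alone. Every KO value lay above every Con value for both members. The same held for 40.5% of all tested genes, while for 44.0% every KO value lay below every Con value, so that the groups did not overlap in 84.6%. For the members this follows from their choice. Of all genes in the table, 2 had at most 3 counts over the Con group and at least 1000 in every KO library, limits set after the values were seen. They were Mrgpra2b and Slc4a1, the anion exchanger of red cells, which had 3877, 1962 and 3269 counts in KO and 1, 1 and 1 in Con. In bulk bone marrow, fewer cells that make an RNA and less of that RNA per cell cannot be told apart.

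Mrgpra2a was given the smaller part of the summed counts in each of the 3 KO libraries. Mrgpra2a took 16.9% of the summed counts in KO replicate 1 (exact 95% interval 15.4% to 18.5%), 14.4% in replicate 2 (12.9% to 16.1%) and 14.1% in replicate 3 (12.7% to 15.5%), and 15.2% when pooled. Mrgpra2b had 4.92, 5.93 and 6.11 times the counts of Mrgpra2a in these libraries. The intervals of KO replicates 1 and 2 overlap, and those of replicates 1 and 3 barely do (from 15.43% to 15.54%). Overlap does not show equal shares, and a difference between the libraries was not tested. The intervals cover counting error but not the error of the authors' assignment. Fractional counts were found for 1449 genes of the table (15.6%; further than 0.001 from a whole number in some library), and 24 genes were fractional in all KO and no Con library. With 3 differing bases, the values of the single copies are uncertain, and the sum is the firmer measure.

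Few other genes of the receptor family were in the deposited table. Of 23 genes of the Mrgpr family, 4 were in it. The table also lacks Csf1r, Itgb2 and Il1b of the other lists, so absence from it does not show that a gene was silent. Mrgpre, a member described in neurons, had 2, 6 and 13 counts in KO and 183, 189 and 183 counts in Con. It fell to 0.882 ± 0.730 CPM in KO, against 14.5 ± 0.520 CPM in Con (SD, n = 3 each; log2 fold change -4.05, SE 0.36; edgeR, Benjamini-Hochberg adjusted p = 4.63e-06). Without KO replicate 3 the log2 fold change was -4.88. The founding member Mas1, a receptor of angiotensin peptides, was too low to test, at 0.123 ± 0.00593 CPM in KO and 0.185 ± 0.164 CPM in Con. The family members of the table thus moved apart, with the pair high in KO and Mrgpre high in Con.

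The genes of the table nearest to the pair along chromosome 7 showed no common direction. Protein-coding genes that the table lacks lie in between, 2 of them before Ptpn5 and 12 before Zdhhc13, the nearest on each side. Of the 5 nearest genes of the table on each side, 9 could be tested, and 2 rose and 5 fell, where 39.6% and 42.4% of all tested genes did, with a median log2 fold change of -0.36 against -0.06 over all genes. The largest change was that of Ldha, a lactate dehydrogenase subunit, which fell to 1233 ± 108 CPM in KO, against 4032 ± 31.2 CPM in Con (-1.71, SE 0.10; edgeR, Benjamini-Hochberg adjusted p = 2.6e-07). E2f8, a cell cycle transcription factor, rose to 160.4 ± 10.3 CPM in KO, against 90.0 ± 8.17 CPM in Con (0.83, SE 0.09). Tsg101, a subunit of the endosomal sorting machinery, had 76.9 ± 4.10 CPM in KO and 78.7 ± 3.00 CPM in Con (-0.03), and Prmt3, an arginine methyltransferase, 30.7 ± 3.70 CPM in KO and 28.5 ± 1.18 CPM in Con (0.11). Neither passed the threshold. Tsg101 was at 0.02 with the size factors of DESeq2 and Prmt3 at -0.25 when scaled by library size alone, where Tsg101 also passed as lower (-0.39). Gtf2h1 (-0.37), Zdhhc13 (-0.69) and Htatip2 (-0.66) fell, Ldhc rose (1.59) and Ptpn5 was too low to test. Of the 5 that fell, Nav2 lost its call under several alternatives, among them DESeq2 (adjusted p = 0.0592) and edgeR with Con replicates 2 and 3 summed (adjusted p = 0.0908).

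Set beside the neutrophil receptors that the table holds, the pair ranked among the most abundant per kb in KO and near the bottom in Con. Of 39 listed G protein-coupled receptors of neutrophils, 28 were in the table and were compared per kb of their longest GENCODE transcript. The others, among them Fpr1, C5ar1 and Ccr1, were not in the table and could not be ranked. The summed pair, at 222, 193 and 244 CPM per kb in KO, averaged 220 ± 25.5 CPM per kb, against 0.0631 ± 0.0628 CPM per kb in Con (SD, n = 3 each). In KO this mean had rank 3 of 29 among the receptors of the table. Without division by length, the KO means of Cxcr2 (668 CPM), Fpr2 (570.5 CPM), Cxcr4 (403 CPM) and Adgre5 (348 CPM) were above that of the pair (275 CPM). Those of the other listed receptors in the table were below it. By the deposited division, Mrgpra2b alone was at 185 ± 22.0 CPM per kb in KO and 0.0625 ± 0.0621 CPM per kb in Con, and Mrgpra2a alone at 33.5 ± 4.96 CPM per kb in KO and 0 in Con. Fpr2, a formyl peptide receptor, led with 504 ± 56.9 CPM per kb in KO and 57.5 ± 2.66 CPM per kb in Con. Its lowest KO library (465 CPM per kb) lay above the highest of the pair (244 CPM per kb). Cxcr4, the receptor that holds neutrophils in bone marrow, had 223 ± 18.2 CPM per kb in KO and 47.6 ± 5.14 CPM per kb in Con. Cxcr2, the receptor that draws them out of it, had 219 ± 28.0 CPM per kb in KO and 12.5 ± 1.67 CPM per kb in Con. The KO values of the pair overlapped those of Cxcr4 (204 to 241), Cxcr2 (197 to 251) and the leukotriene B4 receptor gene Ltb4r1 (170 to 212 CPM per kb), so their order is not resolved. They lay above all KO values of Hcar2, the niacin receptor and the next below Ltb4r1 (85.1 to 177 CPM per kb). In Con, the pair was below every one of the 28 receptors other than Adgre4, at 0.0367 ± 0.0333 CPM per kb.

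**Figure D2:**
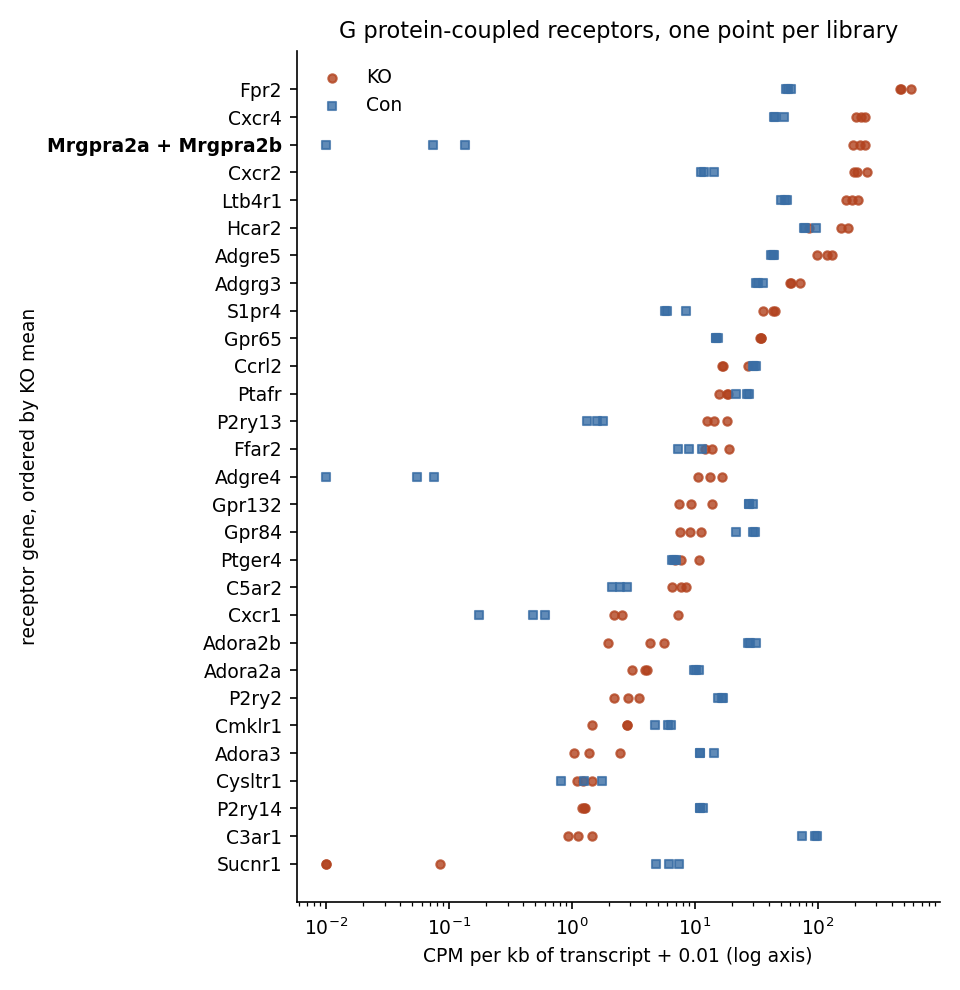
CPM per kb of transcript plus 0.01 (horizontal log axis) of 28 neutrophil G protein-coupled receptors and the summed pair (bold), 1 point per library, ordered by the KO mean (KO circles, Con squares). The pair has rank 3 in KO at 193 to 244 CPM per kb, and its Con points are near the left edge.

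The receptor list as a whole was split between the groups. Of the 28, 14 rose and 12 fell, where 39.6% of all tested genes rose and 42.4% fell. The median log2 fold change was 0.50, against -0.06 over all genes, and was 0.14 when scaled by library size alone. Among those that rose, Cxcr2 had 668 ± 85.2 CPM in KO and 38.1 ± 5.08 CPM in Con (log2 fold change 4.13, SE 0.14; edgeR, Benjamini-Hochberg adjusted p = 1.21e-08), and Fpr2 rose by 3.13 (SE 0.11). Adgre4, an adhesion receptor of myeloid cells, was also close to 0 in Con. It had 37.0, 46.1 and 57.7 CPM in KO, against 0.227, 0.157 and 0 CPM in Con (8.37, SE 0.37, and 9.01 without Con replicate 1). Among those that fell, C3ar1, the complement C3a receptor, had 5.02 ± 1.17 CPM in KO and 386 ± 55.1 CPM in Con (-6.26, SE 0.18; edgeR adjusted p = 6.05e-09). The nucleotide receptor genes P2ry14 (-3.18, SE 0.09) and P2ry2 (-2.52, SE 0.15) fell as well. Neutrophil receptors of this class were thus both higher and lower in the libraries in which the pair was high.

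Neutrophil surface receptors of other classes mostly rose. The test called 18 of 23 higher and 5 lower, against 39.6% and 42.4% of all tested genes, and their median log2 fold change was 2.58. Itgb2l, an integrin subunit, had 578 ± 80.9 CPM in KO and 1.85 ± 0.497 CPM in Con (8.28), and Trem3, an activating receptor, had 318 ± 22.0 CPM in KO and 9.97 ± 0.108 CPM in Con. The 5 that fell include Tnfrsf1b, a tumour necrosis factor receptor (-3.12), the lectin receptor Clec4e (-1.59) and the inhibitory Fc receptor Fcgr2b (-1.40).

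The listed genes of beta-defensins, the known ligands of the pair, were not in the table, so their levels are unknown. Of 25 listed antimicrobial proteins, 16 were tested and all 16 rose, with a median log2 fold change of 3.99, where 39.6% of all tested genes rose. Among the members with the smallest adjusted p were Camp (10.48), S100a9 (7.49) and Ngp (8.27).

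Downstream of such receptors, genes of G protein signalling mostly rose. Of 30 tested genes for G protein subunits, receptor kinases, arrestins, regulators and calcium entry, 19 rose, 5 fell and 6 did not pass, where 39.6% and 42.4% of all tested genes rose and fell. The median log2 fold change of the 30 was 0.85. Scaled by library size alone, 17 rose and 8 fell. Gnai2, the main inhibitory alpha subunit of leukocytes, named after its values were seen, had 1687 ± 22.6 CPM in KO and 674 ± 12.1 CPM in Con (1.32, SE 0.08; edgeR, Benjamini-Hochberg adjusted p = 3.39e-07). Most tested Rgs genes, regulators that shorten G protein signals, were among those that rose, but Rgs1, named for its direction, fell (-1.32, SE 0.22). Rgs2 had 844 ± 167 CPM in KO and 41.8 ± 4.67 CPM in Con (4.34, SE 0.16), Rgs3 rose by 3.11 (SE 0.12) and Rgs14 by 2.87 (SE 0.10). Among those that fell were the beta subunit gene Gnb4 (-2.15, SE 0.15), the gamma subunit gene Gng12 (-1.13, SE 0.09) and Plcb3, the phospholipase that raises calcium (-0.68, SE 0.08).

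The cytokines that neutrophils release went mainly the other way. Among 10 tested genes, 8 fell, 1 rose and 1 did not pass, where 42.4% of all tested genes fell and 39.6% rose, and the median log2 fold change was -3.50. Cxcl3, a chemokine that draws neutrophils, fell most (log2 fold change -6.165, SE 0.15). Cxcl2, one of the reported outputs of the pair and named for that role, had 464, 501 and 632 CPM in KO, against 681, 708 and 707 CPM in Con. It was the mildest of the 8 that fell (-0.39, SE 0.12; edgeR, Benjamini-Hochberg adjusted p = 0.0105), and the groups did not overlap. Il1b, the other reported output, was listed but was not in the table. Cxcl1, a related chemokine, fell to 1.62 ± 0.877 CPM in KO, against 102.6 ± 14.5 CPM in Con (-5.99, SE 0.25), and Il1rn, the interleukin-1 receptor antagonist, to 149 ± 20.6 CPM in KO, against 1457 ± 114 CPM in Con (-3.29, SE 0.13). Osm, oncostatin M, rose to 853 ± 217 CPM in KO, against 275 ± 55.9 CPM in Con (1.64, SE 0.20).

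**Figure D3:**
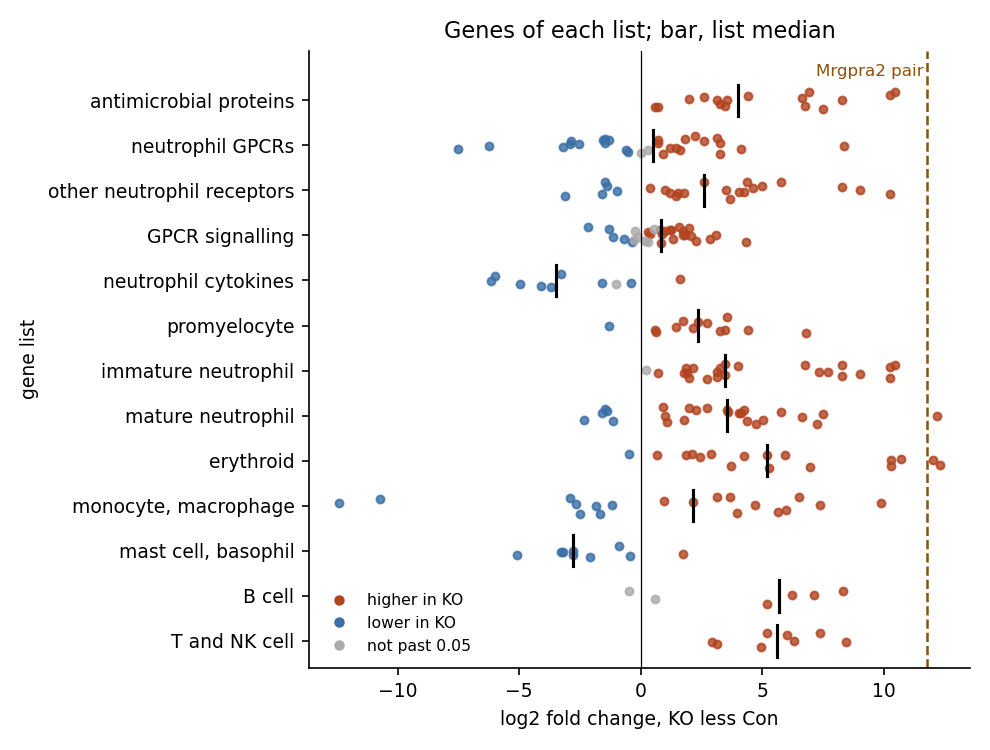
Log2 fold change, KO less Con (horizontal axis), of each tested gene of 13 lists (rows), coloured by whether it was higher in KO, lower in KO or not past the edgeR threshold, with a bar at each list's median. All 16 antimicrobial genes lie to the right of 0 and cytokines lie mainly to the left. The dashed line marks the summed pair (11.78), a ratio of pooled CPM and not an edgeR value, given as a description.

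Most genes of each stage of neutrophil maturation rose alongside the pair. Of 13 promyelocyte genes 12 rose and 1 fell (median log2 fold change 2.37), of 23 immature neutrophil genes 22 rose and 1 did not pass (3.45), and of 25 mature neutrophil genes 20 rose and 5 fell (3.55), where 39.6% of all tested genes rose and 42.4% fell. The promyelocyte gene that fell was Cd63, a granule membrane protein (-1.30), and the mature genes that fell include Fth1, the ferritin heavy chain (-2.32), and the interferon-induced Rsad2 (-1.38). Summed over their genes, promyelocyte genes were 3.46 times, immature genes 10.1 times and mature genes 4.82 times as high in KO as in Con. These sums are led by a few abundant genes. Chil3, named for its share, held 5391, 6336 and 6053 CPM of the immature sums of 8647, 10088 and 9835 CPM in Con replicates 1, 2 and 3. In KO it had 9731 ± 1612 CPM (SD, n = 3). The immature ratio without Chil3 alone was not computed. Without Fth1, left out after its values were seen, mature genes were 22.3 times as high in KO. The ratio of the pair (3518, from pooled CPM) was above those of the sums, but single genes of the lists also had ratios of this order. The ratios of single genes given next are edgeR estimates, a different measure. By edgeR, Mrgpra2b alone was at 2592.5 in place of 2984 from pooled CPM. Retnlg, a resistin-like cytokine of mature neutrophils, was 4738 times, Camp 1430 times, Ltf 1232 times and Ly6g 1229 times as high in KO as in Con. The pair was also set against each list within every library. Per 1000 CPM of promyelocyte genes, the pair had 30.1, 28.8 and 48.9 CPM in KO and 0, 0.0692 and 0.0348 CPM in Con. Per 1000 CPM of immature neutrophil genes it had 2.59, 2.77 and 3.22 CPM in KO and 0, 0.0156 and 0.00813 CPM in Con. Per 1000 CPM of mature neutrophil genes it had 2.03, 1.88 and 2.52 CPM in KO and 0, 0.00572 and 0.00276 CPM in Con.

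Within KO, the level of the pair and the level of each list varied to different extents. KO replicate 3 had the highest level of the pair (305 CPM) and the lowest of the promyelocyte list (6247 CPM, against 9229 and 8394 CPM in KO replicates 1 and 2). The ratio of the pair to that list varied by 31.3% (SD over mean), against 11.2% for the immature list, 15.6% for the mature list and 6.23% for the neutrophil G protein-coupled receptors, whose ratios were 79.6, 82.0 and 89.6 CPM of the pair per 1000. Without the 10 most abundant genes of the mature list, 15 genes were left and the ratio was 34.3, 33.6 and 34.1, varying by 1.15%. The same step raised the variation to 35.5% for the 3 promyelocyte genes left and to 15% for the 13 immature genes left, and lowered it to 3.09% for the 18 receptors left. These are 3 libraries, and the differences between the spreads were not tested.

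**Figure D4:**
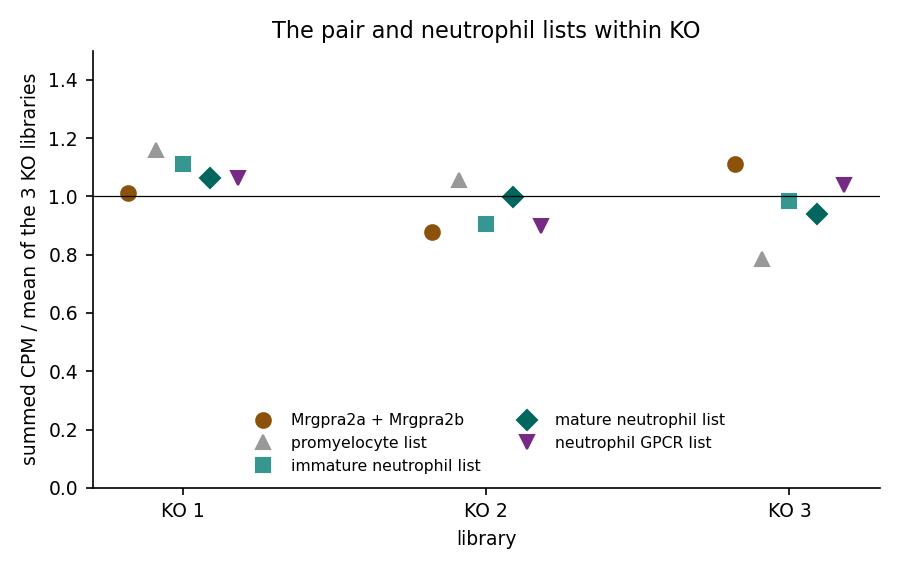
Summed CPM of the pair and of 4 neutrophil lists in each KO library (horizontal axis), divided by its mean over the 3 KO libraries (vertical axis). In KO replicate 3 the pair is at its highest (305 CPM) and the promyelocyte list at its lowest (6247 CPM).

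Markers of other cell types moved between the same libraries. Of all tested genes 39.6% rose and 42.4% fell. Of 17 erythroid genes 16 rose and 1 fell, and the list summed to 18920 to 26494 CPM in KO and 897 to 1137 CPM in Con. Of 8 T and NK cell genes all 8 rose, at 107 to 139 CPM in KO and 3.76 to 9.02 CPM in Con, with 1 gene (Ncr1, named for its count) at 0 in Con. Of 6 B cell genes 4 rose and 2 did not pass (93.3 to 260 CPM in KO and 44.5 to 76.5 CPM in Con). Of 19 monocyte and macrophage genes 11 rose and 8 fell, where 39.6% and 42.4% of all tested genes did, and their median log2 fold change was 2.16. The list summed to 4338 to 5783 CPM in KO and 21448 to 31859 CPM in Con, with most of the Con sum in Gpnmb (8.26 ± 1.495 CPM in KO and 14058 ± 3451 CPM in Con) and Mmp12 (1.49 ± 0.791 CPM in KO and 8292 ± 1580 CPM in Con). The part of these shifts in the level of the pair was not tested. Most tested genes listed for mast cells and sensory neurons, the other known sites of the family, were lower in KO. Of 9 mast cell and basophil genes 8 fell and 1 rose (1245 to 1769 CPM in KO and 2333 to 3011 CPM in Con), with the protease gene Cpa3 at 42.9 ± 9.76 CPM in KO and 419 ± 55.7 CPM in Con (log2 fold change -3.29, SE 0.18; edgeR, Benjamini-Hochberg adjusted p = 2.49e-07). Of 12 sensory neuron genes 4 were in the table, and they summed to 2.10 to 2.84 CPM in KO and 17.9 to 29.2 CPM in Con. Only 2 of them were tested and both were lower, too few to speak for the presence of sensory neurons. The sodium channel gene Scn10a was at 0 in each KO library and at 7.89 ± 1.26 CPM in Con.

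The genes whose pattern over the 6 libraries was most like that of the summed pair are known as 5 neutrophil genes, 4 erythroid genes and 1 macrophage gene. Likeness was the root mean square difference of log2 CPM, each gene less its own mean, over the 6 libraries. Among 8356 other genes the median was 5.05, and the 10 nearest lay between 0.349 and 0.925. They were Camp (0.349), Alas2 (0.354), Slc4a1 (0.367), Ltf (0.392), Hba-a1 (0.534), Cd177 (0.559), Ly6g (0.654), Cd163 (0.874), Trim10 (0.908) and Ngp (0.925). Camp, Ltf and Ngp encode granule proteins of immature neutrophils, and Ly6g and Cd177 are neutrophil surface antigens. Alas2, the first enzyme of heme synthesis in red cells, Slc4a1, the alpha-globin gene Hba-a1 and Trim10 are erythroid, and Cd163 is a scavenger receptor of macrophages. Since the measure rewards a like difference between the groups, the folds of these genes follow from the choice. Within KO the pair was lowest in replicate 2, with a log2 CPM of 8.12, 7.92 and 8.26 in replicates 1, 2 and 3. Slc4a1, Ltf, Cd177, Ly6g and Ngp were lowest there too, Alas2, Hba-a1, Cd163 and Trim10 in replicate 1, and Camp in replicate 3. With a prior count of 0.5 in place of 2, 6 of the 10 remained.

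**Figure D5:**
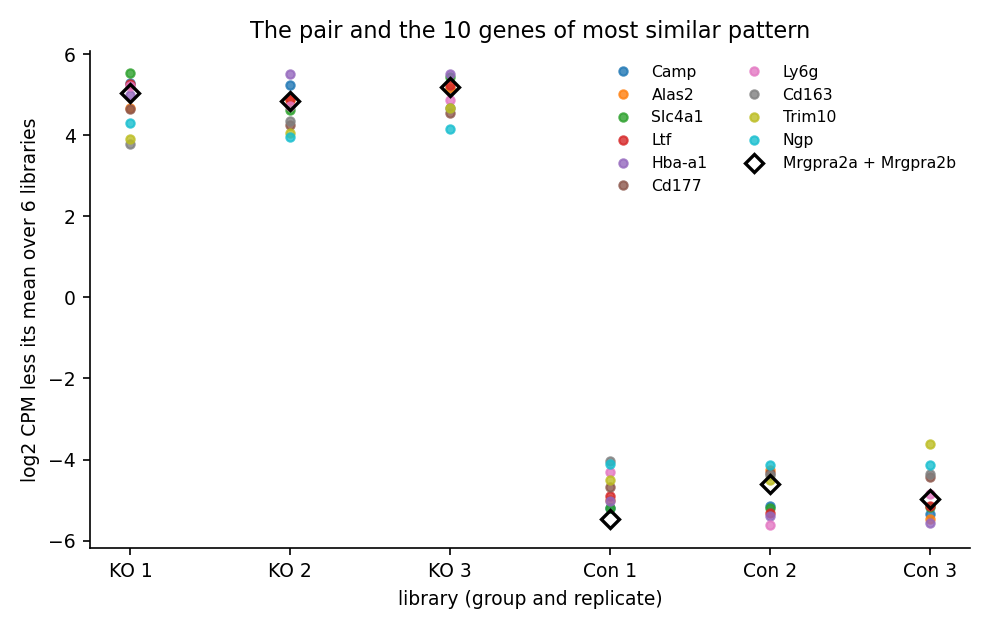
Log2 CPM less its mean over the 6 libraries (vertical axis) of the summed pair (open diamonds) and the 10 genes of most similar pattern, in each library (KO left, Con right). The points of all 11 lie together in both groups, at distances of 0.349 to 0.925 from the pair.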

How the data were processed

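Per the labels' protocols, TRIzol was used for RNA and a BGI dual-mode kit for mRNA libraries. The authors deposited 1 table of expected counts per gene, not scaled, with 1 column per library (0 columns unused). The sources used here do not give the aligner, counting tool or read length. GRCh38, which is a human build, stands in the submitters' processing notes although the genes are those of mouse, so coordinates are those of GENCODE M21 and RefSeq sequences, not of the authors' alignment. Counts were rounded and tested with edgeR 4.0.16 in R 4.3.3 (TMM, filterByExpr, robust quasi-likelihood test, two-sided, no covariate), with Benjamini-Hochberg adjustment over 8358 genes and a threshold of 0.05. The script was tested on simulated data. CPM values use unrounded counts. TMM factors were 0.876 to 0.900 in KO and 1.11 to 1.17 in Con. Intervals and floors cover counting error only. Without molecular identifiers, reads are not independent molecules.

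The members and the 15 gene lists were chosen with earlier results of these data known. Genes named in the text are drawn from a rule that takes both members, all detected Mrgpr genes, the 3 genes of smallest adjusted p in each direction of each list (mean log2 CPM of at least 0), the 5 neighbours on each side, Papola and the 10 genes of nearest pattern, or are said to be named otherwise. Alternatives were DESeq2 1.42.0, limma-voom (limma 3.58.1), other scalings, filters, rounding, summed members, Con replicates 2 and 3 summed, the replicate number as a block, each library left out, another prior count, shortened stage lists and, added after seeing the data, the mature list without Fth1.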

Additional observations from a re-analysis of the deposited data

How the results depend on the processing

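Of 362 values recomputed under an alternative, 355 stayed within the limits used (1.5 times for a count, 1 SD for a level). This tally does not measure stability, since some values could hardly change. The levels of the pair do not depend on the robust step, the replicate block or the summing of members, and hardly on rounding. Lists with every tested gene already called also had little room to move. With DESeq2 the genes called were 3384 higher and 3322 lower, so their balance turned from 3310 and 3544. The same held for edgeR with the size factors of DESeq2 (3421 and 3393). Among named genes, Papola, Prmt3 and Tsg101 changed sign under some alternatives. The summed level of the pair in KO was 242.9 CPM when scaled by library size alone, in place of 275 CPM, and 267 to 297 CPM with any 1 library left out (Mrgpra2a 39.9 to 45.9 CPM, Mrgpra2b 225 to 252 CPM, and a Mrgpra2a share of 14.2% to 15.8%). Without the 10 most abundant genes of each stage list, the pair per 1000 CPM was 1372 in place of 35.9 for promyelocyte genes, 37.7 in place of 2.86 for immature genes and 34.0 in place of 2.15 for mature genes, as the lists are then shorter. Without Fth1 the mature value was 2.22. Under the stricter filter of 10 CPM in 3 libraries, 3 T and NK cell genes were called in place of 8 and 1 sensory neuron gene in place of 2, since no more were tested. With the prior count of 0.5, 6 of the 10 genes nearest in pattern were kept. The number of genes called was 6485 to 6855 with any 1 library left out and 6854 with none left out.

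Deviations of same-numbered libraries correlated at -0.004 to 0.027, and those of other KO and Con pairs at -0.057 to 0.045. The replicate numbers thus gave no sign of pairing, but this check cannot show that the samples were unpaired. With the replicate block, 6766 genes were called. Among 74 named genes tested, Papola and Nav2 lost their call under some alternatives and Tsg101 gained one when scaled by library size alone. The log2 fold change of Trim10 was 12.69 without Con replicate 3 in place of 10.32, and that of Alas2 was 10.93 without Con replicate 2 in place of 10.30. Depth limits the Con side, where the pair rests on 3 counts in all. The samples are few, the labels are not checked by Papola, and the 3 differing bases limit the division between the copies.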
